A study of Homo sapiens with 40 samples.

Results

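Expression of 10 genes was followed across 24 RNA-seq libraries: the NF-κB transcription factor genes NFKB1, NFKB2, RELA and RELB, 5 genes known as NF-κB targets (NFKBIA, TNFAIP3, TNFAIP2, BIRC3 and ICAM1) and the ubiquitin ligase gene TRIM31. They make up 10 of the 60708 genes counted, and all 10 were found by symbol. The genes were selected on values of these same libraries, among them the responses to TGFβ and the differences between cell lines described here, so their levels and fold-changes are given as a description. Libraries fall into 8 groups of 3. MI-spheres are 3D cultures of MCF-10A, an immortalized human mammary epithelial line, and MII-spheres are those of its HRAS-transformed derivative MCF-10AneoT. Spheres grew on ultra-low attachment plastic and were either untreated (Ctrl) or given TGFβ1 at 2.5 ng/ml for 16 h. The other 4 groups are monolayers of MDA-MB-231, a triple-negative breast cancer line, and none of them was labelled as given TGFβ. They are cells labelled WT, cells labelled SLUG KO (CRISPR/Cas9 editing of SNAI2, which encodes SLUG, in lines expanded from single cells), cells with a scrambled siRNA (Csi), and cells with siRNAs to SMAD2, SMAD3 and SMAD4 (siSMAD2/3/4). A difference between the WT and SLUG KO groups therefore also holds any difference between clones.

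NF-κB proteins are dimers of REL-domain subunits. In the canonical pathway, receptors for TNF, interleukin-1 or microbial products activate the IκB kinase complex, IκBα is degraded, and dimers of RELA with p50, the product of NFKB1, enter the nucleus. In the non-canonical pathway the kinase NIK triggers processing of the NFKB2 product to p52, which pairs with RELB. The canonical pathway switches on its own brakes. NFKBIA encodes IκBα, which holds dimers in the cytoplasm, and TNFAIP3 encodes A20, a ubiquitin-editing enzyme that dampens the signal upstream. BIRC3 encodes cIAP2, an inhibitor-of-apoptosis ubiquitin ligase, ICAM1 encodes an adhesion molecule that binds leukocyte integrins, TNFAIP2 is a TNF-induced gene, and TRIM31 encodes a ligase of the tripartite-motif family. RNA levels do not report the location or activity of these proteins.

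NF-κB dimers bind the κB motif, so the sequence before the start of the genes is shown where it holds a match. RefSeq promoter windows (GRCh38.p14, 250 bases before to 50 after each start) were matched for 9 of the 10 genes, all but RELB, with 13 windows in all because some genes have several starts. The κB consensus, searched on both strands with overlapping matches counted separately, was found in 7 of the 13 windows and in 6 genes, and in 5.91% of all 35116 windows. Most of these genes are NF-κB factor genes or known targets, and some have several windows, so that share is a description. A part of these sites in the responses was not tested. The motif CAGAC, contained in SMAD-binding elements, was found in 5 of the 13 windows and in 45.3% of all windows. Bases of the genes with full stretches below run 5′ to 3′ on the strand of the gene and end before its first annotated start, and capitals mark bases within a κB match on either strand. The stretches lie at chr6:30113091-30113340 (TRIM31, minus strand, 250 bases), chr14:35404750-35404999 (NFKBIA, minus strand, 250 bases), chr11:102317234-102317449 (BIRC3, plus strand, 216 bases) and chr6:137867009-137867213 (TNFAIP3, plus strand, 205 bases).
TRIM31: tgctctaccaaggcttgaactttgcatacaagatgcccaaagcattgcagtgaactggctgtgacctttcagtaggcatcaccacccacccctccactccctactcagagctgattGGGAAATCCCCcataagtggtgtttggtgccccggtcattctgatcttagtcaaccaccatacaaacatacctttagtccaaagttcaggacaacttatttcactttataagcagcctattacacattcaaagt
NFKBIA: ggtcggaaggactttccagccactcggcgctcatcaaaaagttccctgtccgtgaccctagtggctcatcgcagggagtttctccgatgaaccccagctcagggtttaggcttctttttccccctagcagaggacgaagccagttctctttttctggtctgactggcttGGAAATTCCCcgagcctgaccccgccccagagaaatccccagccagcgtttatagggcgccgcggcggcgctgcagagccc
BIRC3: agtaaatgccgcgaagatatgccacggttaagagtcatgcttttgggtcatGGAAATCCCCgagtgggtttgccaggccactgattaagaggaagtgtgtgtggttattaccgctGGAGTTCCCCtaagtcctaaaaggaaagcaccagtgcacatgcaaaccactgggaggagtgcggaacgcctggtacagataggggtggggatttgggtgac
TNFAIP3: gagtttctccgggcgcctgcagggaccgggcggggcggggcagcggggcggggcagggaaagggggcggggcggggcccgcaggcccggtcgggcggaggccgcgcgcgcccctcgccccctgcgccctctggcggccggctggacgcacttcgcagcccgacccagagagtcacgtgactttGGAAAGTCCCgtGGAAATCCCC
In TRIM31 3 overlapping matches share 1 stretch, while BIRC3 and TNFAIP3 hold 2 separate matches each and NFKBIA holds 1. For the subunit genes only 1 match per window is shown with its neighbouring bases, out of 1 match in NFKB1 and of 4 and 2 in the windows of NFKB2, at chr4:102501300-102501329 (NFKB1, plus strand) and, for different starts of NFKB2 on the plus strand, at chr10:102394461-102394490 and chr10:102395674-102395703.
NFKB1: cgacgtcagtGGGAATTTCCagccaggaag
NFKB2: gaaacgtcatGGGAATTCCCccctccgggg
NFKB2: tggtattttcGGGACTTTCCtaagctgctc
No match lay in the windows of RELA, TNFAIP2 and ICAM1, which says only that these letters are not in those windows.

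Between 14124688 and 38406952 fragments per library were counted on genes. Levels are CPM, the counts scaled to library size with TMM factors over the 24 libraries. Correlations between replicates used 14367 genes with a mean of at least 1 CPM over the WT, SLUG KO and Csi libraries. Genes expressed only in spheres are thus left out. Replicates of 7 groups correlated across these 14367 genes in log2 CPM with Pearson's r of 0.990 to 0.996. In the WT group, replicates 1 and 3 had r = 0.992, but replicate 2 had r = 0.911 and 0.903 with them. Results of the members for SLUG KO are therefore given with and without WT replicate 2. SNAI2 itself was higher in the libraries labelled SLUG KO (57.7 to 64.3 CPM) than in those labelled WT (20.9 to 33.7 CPM), and since the whole gene was counted this does not read the edit. SMAD2, SMAD3 and SMAD4 were at 23.95, 165 and 16.8 CPM in siSMAD2/3/4 and at 90.5, 266 and 55.4 CPM in Csi cells. HRAS had a mean of 220.1 CPM in MII-Ctrl and 40.7 CPM in MI-Ctrl. The 6 epithelial markers summed to at least 1092 CPM in each sphere library and at most 42.9 CPM in each MDA-MB-231 library, whereas the 3 mesenchymal markers, led by VIM, summed to at most 14.4 CPM in spheres and at least 635 CPM in MDA-MB-231 cells. Single markers departed from these sums. Epithelial TP63 had a mean of 0.620 CPM in MII-Ctrl, below 1.07 CPM in WT and 3.65 CPM in Csi. Mesenchymal SPARC had a mean of 3.33 CPM in MI-TGFβ, against 0.581 CPM in WT, 0.981 CPM in SLUG KO and 4.08 CPM in Csi. The pan-leukocyte gene PTPRC stayed at or under 0.580 CPM in every library. Its list still summed to 101.2 to 109.9 CPM in MI- and 217 to 236 CPM in MII-spheres, nearly all of it CD14 with, in MII-spheres, LYZ. The 3 endothelial markers summed to 13.2 to 34.5 CPM in MI- and 96.1 to 117 CPM in MII-spheres, mostly PECAM1 in the latter, with VWF at or under 1.61 CPM. CDH5 had means of 22.2 and 2.20 CPM in MI-Ctrl and MI-TGFβ, and 10.7 and 7.13 CPM in MII-Ctrl and MII-TGFβ. The part of these genes in the results was not tested.

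TRIM31 and ICAM1 divided the cell models most sharply. TRIM31 had 35.04 to 699 CPM in the 12 sphere libraries and 0 to 6 counts in each of the 12 MDA-MB-231 libraries, where it did not pass the filter on low counts. ICAM1 was the reverse, with 36.5 to 98.4 CPM in MDA-MB-231 cells and 2 to 24 counts in each sphere library. Line, culture form and, for Csi and siSMAD2/3/4, the sequencing batch cannot be told apart in such contrasts, so spheres and monolayers were not compared in a model. Per kilobase of exon, TNFAIP2 was the most abundant of the 10 RNAs in unstimulated spheres (168 ± 3.60 CPM per kb in MI and 274 ± 9.37 in MII, SD, n = 3), ahead of NFKBIA in MI (157 ± 4.17) and of TRIM31 in MII (197 ± 1.82). On the same scale the factor genes of MI-Ctrl spheres lay between 6.97 ± 0.223 (RELA) and 14.5 ± 0.447 (NFKB1). In Csi cells RELA (28.1 ± 0.559) and NFKB2 (24.7 ± 1.13) stood highest among the factors. ICAM1 shares 25.4% of its exon bases with genes on the opposite strand, TRIM31 shares 4.94% with TRIM31-AS1, and RELA, TNFAIP3 and BIRC3 share under 2% each; counting ignored strand, so reads there cannot be assigned.

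Ordered by group means, NFKBIA was highest in MI-Ctrl, then SLUG KO, MI-TGFβ and WT, with no overlap of libraries between these neighbours, and it was lowest in MII-TGFβ, whose libraries overlapped with Csi. TNFAIP3 was highest in MI-Ctrl, apart from every other group. MI-TGFβ, SLUG KO, WT, siSMAD2/3/4 and Csi followed, each overlapping the next, and both MII groups came last and overlapped. BIRC3 was highest in SLUG KO, with siSMAD2/3/4 next, then MI-Ctrl, Csi and WT overlapping in turn, and MII-TGFβ, MII-Ctrl and MI-TGFβ apart from one another at the low end. TNFAIP2 ran from MII-Ctrl through MI-Ctrl and MII-TGFβ to SLUG KO without overlap and ended with MI-TGFβ and WT, which overlapped. NFKB2 and RELA were highest in Csi and lowest in MI-TGFβ, which overlapped with MII-TGFβ for both. RELB was highest in SLUG KO and Csi, which overlapped, and lowest in MI-TGFβ, MII-TGFβ and MII-Ctrl, which overlapped in turn. NFKB1 had the smallest ratio of highest to lowest group mean, from 92.3 ± 2.84 CPM in MI-Ctrl to 49.9 ± 0.206 CPM in MII-Ctrl (SD, n = 3).

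In MI-spheres, TGFβ lowered the RNA of the factors, their inhibitors and TRIM31 together. All 9 members that passed the filter on low counts fell in edgeR's quasi-likelihood test at an adjusted p under 0.05, 6 of them more than 2-fold, where 27.4% of all 16863 genes tested were called lower and 28.7% higher; ICAM1 did not pass the filter. Since these values had a part in choosing the genes, nothing is read from that count. In bulk RNA, fewer cells of a type and less RNA per cell cannot be told apart.

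TRIM31 moved most. Unstimulated MI-spheres had 523, 519 and 515 CPM and stimulated ones 35.7, 35.04 and 36.6 CPM. The groups lie far apart, with a spread of a few CPM within each, and the log2 fold-change was -3.94 ± 0.06 (SE), which is 15.4-fold lower. Among the brakes, NFKBIA stood at 369, 366 and 384 CPM without and 151, 147 and 162 CPM after stimulation (-1.36 ± 0.05 on the log2 scale). TNFAIP3 went from 59.1, 56.6 and 54.96 CPM to 12.01, 13.7 and 11.2 CPM (-2.29 ± 0.08). So the genes for both inhibitors, IκBα and A20, fell, and TNFAIP3 lost the larger share of its RNA.

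The other target genes fell by more than the factors did. BIRC3 had 82.6, 86.5 and 89.8 CPM in unstimulated and 16.3, 14.1 and 17.0 CPM in stimulated MI-spheres (-2.53 ± 0.07). TNFAIP2 fell from 871, 841 and 837 CPM to 207, 198 and 208 CPM (-2.14 ± 0.05). Neither gene had an unstimulated library near a stimulated one. ICAM1 stayed at 0.289 to 0.415 CPM without and 0.110 to 0.224 CPM with TGFβ, too few counts for a test.

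Among the factor genes, the non-canonical pair changed most. NFKB2 had 59.4, 61.4 and 53.7 CPM in Ctrl and 22.3, 26.0 and 21.8 CPM in TGFβ libraries (-1.39 ± 0.08). RELB had 29.0, 23.9 and 26.7 CPM against 13.7, 16.0 and 15.8 CPM (-0.89 ± 0.09). The canonical pair moved by a fraction of that. NFKB1, at 95.5, 91.5 and 89.9 CPM in Ctrl and 83.4, 78.6 and 90.1 CPM in stimulated libraries, overlapped between the groups (-0.22 ± 0.06). RELA had 37.9, 39.3 and 36.9 CPM in Ctrl and 34.7, 35.9 and 29.1 CPM in stimulated libraries, with the log2 fold-change at -0.28 ± 0.08. The RELA call was lost without MI-Ctrl replicate 2 (-0.24).

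In MII-spheres the response of the same genes was mixed. It was smaller in size for all genes tested in both lines except NFKB1 (0.25 in MII, -0.22 in MI) and RELA (-0.30 in MII, -0.28 in MI). All 10 members passed the filter, 6 fell and 3 rose at an adjusted p under 0.05, and RELB did not pass; of all 16396 genes tested, 27.6% were called lower and 29.9% higher. TRIM31 again moved most among those that fell, from 687, 695 and 699 CPM to 268, 243 and 243 CPM (-1.50 ± 0.04), so that stimulated MII-spheres kept more TRIM31 RNA than stimulated MI-spheres. TNFAIP2 fell from 1384, 1432 and 1337 CPM to 815, 788 and 825 CPM (-0.81 ± 0.03).

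The brakes moved little from low levels. NFKBIA had 78.9, 80.8 and 78.7 CPM in unstimulated and 67.9, 61.8 and 70.0 CPM in stimulated MII-spheres (-0.29 ± 0.05). TNFAIP3 had 6.55, 5.42 and 4.88 CPM against 3.58, 3.73 and 4.89 CPM, and the groups overlapped. Its log2 fold-change of -0.49 ± 0.17 lost the call in DESeq2 (-0.46) and without MII-Ctrl replicate 1 (-0.38), MII-TGFβ replicate 1 (-0.40) or MII-TGFβ replicate 2 (-0.42).

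BIRC3 rose, from 27.1, 23.8 and 24.3 CPM to 35.8, 34.5 and 31.6 CPM (0.41 ± 0.07), with no overlap. NFKB1 also rose, from 50.1, 49.7 and 49.8 CPM to 58.6, 61.8 and 62.7 CPM (0.25 ± 0.06). Of the other factor genes, NFKB2 fell from 27.4, 32.6 and 30.7 CPM to 24.3, 25.9 and 25.5 CPM (-0.31 ± 0.07) and RELA fell from 40.1, 42.2 and 41.6 CPM to 34.3, 32.4 and 36.3 CPM (-0.30 ± 0.06). RELB had 14.7, 15.2 and 12.4 CPM without and 15.8, 13.4 and 16.1 CPM with TGFβ; its log2 fold-change was 0.05 ± 0.10 and its libraries overlapped.

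ICAM1 had 0.728, 0.334 and 0.388 CPM in unstimulated and 0.676, 0.600 and 1.63 CPM in stimulated MII-spheres. Its log2 fold-change of 1.05 ± 0.44 passed the threshold, but only 4 of 11 alternative fits passed. Without MII-TGFβ replicate 3 the value was 0.46 and the call was lost, as it was without MII-Ctrl replicate 2 (0.78) or replicate 3 (0.96). MII-TGFβ replicate 3 also held more RNA of MDA-MB-231 genes. Over 33 genes chosen after its values were seen, with at least 20 CPM in every WT and SLUG KO library and at most 0.2 CPM in MI-Ctrl, the summed level was 33.2 CPM in MII-TGFβ replicate 3, 17.5 and 17.7 CPM in the other stimulated and 7.74 to 9.27 CPM in the unstimulated MII libraries. Only 1 of the 33 genes was at 0 there, against 11 to 22 in the other MII libraries, and the part of this in the ICAM1 value was not tested. MI-TGFβ replicate 2 likewise had 12.1 CPM over these genes against 2.36 and 3.02 CPM in its replicates.

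**Figure D1:**
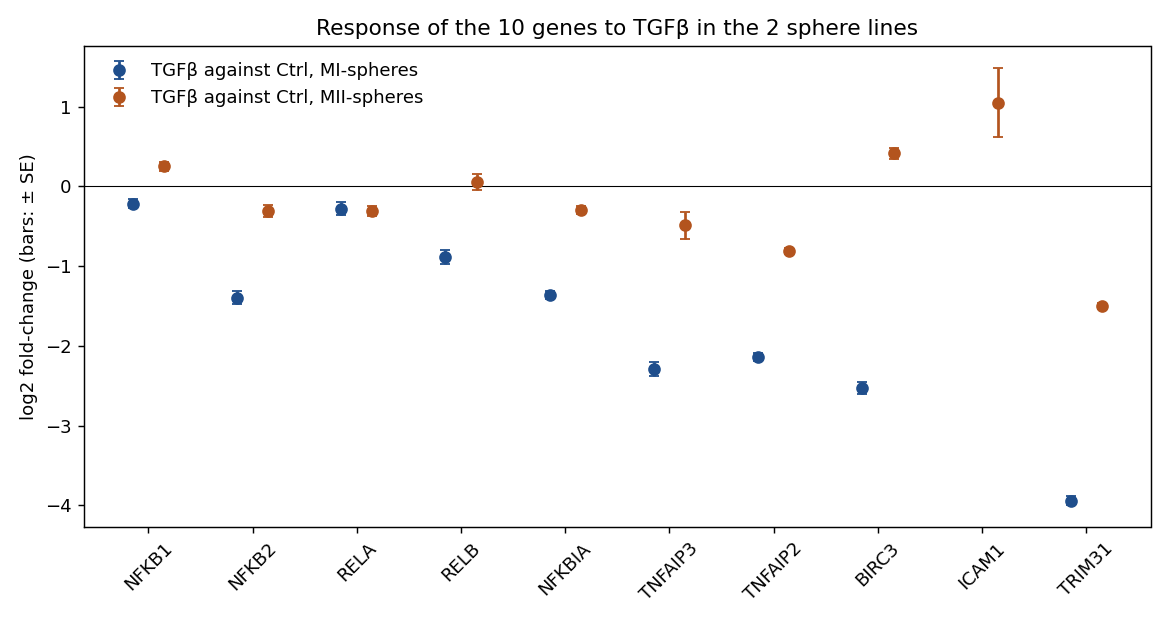
Log2 fold-change ± SE (y axis) of each gene (x axis) for TGFβ against Ctrl in MI- and MII-spheres, from fits of 6 libraries each. All 9 values in MI-spheres lie below 0, down to -3.94 for TRIM31; in MII-spheres the values run from -1.50 for TRIM31 to 1.05 for ICAM1, which has the widest error and no value in MI-spheres.

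The difference between the responses was tested as the interaction of line and TGFβ over the 12 sphere libraries. For 8 of the 10 genes the response in MII-spheres was called higher (less negative, or positive) than in MI-spheres and for none was it called lower. Of all 18591 genes tested, 12.6% were called higher and 9.75% lower. These values had a part in choosing the genes, so nothing is read from that count. The difference in log2 fold-change was 2.95 ± 0.10 for BIRC3, which fell in MI and rose in MII, and 2.45 ± 0.07 for TRIM31, which fell in both. TNFAIP3 (1.82 ± 0.18), TNFAIP2 (1.34 ± 0.06), NFKB2 (1.10 ± 0.11), NFKBIA (1.08 ± 0.07) and RELB (0.95 ± 0.14) followed, with NFKB1 at 0.48 ± 0.08. RELA, with -0.01 ± 0.11, and ICAM1, with 2.01 ± 0.76, did not pass. ICAM1 passed without MII-Ctrl replicate 1 (2.37) or MII-TGFβ replicate 2 (2.23).

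Without TGFβ the lines already differed in these RNAs. Between MII-Ctrl and MI-Ctrl, 6 of the 9 members that passed the filter were lower in MII-spheres and 3 were higher, and of all 17862 genes tested 32.5% were called lower and 31.7% higher. This comparison shares its libraries with the Ctrl arms of the TGFβ comparisons. TNFAIP3 differed most, with 4.88 to 6.55 CPM in MII against 55.0 to 59.1 CPM in MI libraries (-3.35 ± 0.08, 10.2-fold lower). NFKBIA was at 78.7 to 80.8 CPM against 366 to 384 CPM (-2.22 ± 0.04), and BIRC3 at 23.8 to 27.1 CPM against 82.6 to 89.8 CPM (-1.78 ± 0.06). The 3 feedback and survival genes were thus lower in unstimulated MII-spheres, and for each of them no library of one line reached into the range of the other.

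NFKB2 (-0.92 ± 0.06), RELB (-0.90 ± 0.08) and NFKB1 (-0.88 ± 0.05) were lower in MII-Ctrl by near the same factor. RELA was 0.13 ± 0.06 higher, a call that was lost in DESeq2 and in 5 of the 6 fits that left out 1 library, among others. TNFAIP2 was higher in MII-Ctrl (1337 to 1432 CPM against 837 to 871 CPM, 0.72 ± 0.03) and so was TRIM31 (687 to 699 CPM against 515 to 523 CPM, 0.43 ± 0.03). TRIM31 and TNFAIP2 thus differed between the lines in the direction opposite to NFKBIA, TNFAIP3 and BIRC3.

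In MDA-MB-231 cells labelled SLUG KO, 1 of the 9 members that passed the filter, NFKBIA, differed from WT at an adjusted p under 0.05, where 1.45% of 17428 genes were called higher and 1.89% lower. NFKBIA was at 89.3, 98.8 and 103.4 CPM in WT and 208, 191 and 226 CPM in SLUG KO libraries (1.07 ± 0.16). TNFAIP2 and BIRC3 also passed in DESeq2 and without a low-count filter. Without WT replicate 2 all 9 members were called higher in SLUG KO, and 16.8% of the 17909 genes then tested were called higher. The WT arm then rests on 2 libraries. NFKBIA itself was called with every library and without WT replicate 2 or 3, and it lost the call without WT replicate 1 or any of the SLUG KO libraries, with log2 fold-changes of 1.03 to 1.15 throughout.

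Most members sat at other levels in WT replicate 2 than in its replicates. BIRC3 had 97.5, 43.4 and 110.2 CPM in WT replicates 1 to 3 and 218, 211 and 223 CPM in SLUG KO libraries. Its log2 fold-change was 1.35 ± 0.33, not past the threshold, and 1.05 ± 0.09 without replicate 2. TNFAIP2 had 130.7, 224 and 133 CPM in WT against 369, 330.1 and 353 CPM in SLUG KO (1.08 ± 0.25, and 1.40 ± 0.09 without replicate 2). Both genes had every SLUG KO library above every WT library.

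ICAM1 had 37.2, 68.6 and 36.5 CPM in WT and 86.2, 71.3 and 98.4 CPM in SLUG KO libraries (0.82 ± 0.29, and 1.20 ± 0.12 without replicate 2). For NFKB2, WT replicate 2 lay above every SLUG KO library: WT had 50.6, 120.8 and 53.1 CPM and SLUG KO 78.7, 75.2 and 78.0 CPM, with a log2 fold-change of 0.02 ± 0.35 in all and 0.57 ± 0.09 without replicate 2. RELA was at 54.1, 93.6 and 55.4 CPM in WT and 69.7, 64.0 and 71.1 CPM in SLUG KO libraries (-0.02 ± 0.25, and 0.31 ± 0.09). With all libraries the values of RELB, TNFAIP3 and NFKB1 were 0.47 ± 0.28, 0.23 ± 0.28 and 0.31 ± 0.15, none past the threshold. RELB and TNFAIP3 overlapped between the groups. Without replicate 2 the values of RELB, TNFAIP3 and NFKB1 were 0.85 ± 0.11, 0.58 ± 0.15 and 0.30 ± 0.09. WT replicate 2 also had 37.3 CPM of MYD88, an adaptor of Toll-like and interleukin-1 receptors, against 10.4 and 8.65 CPM in its replicates, and 82.5 CPM of SMAD2 against 144 and 146 CPM.

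**Figure D2:**
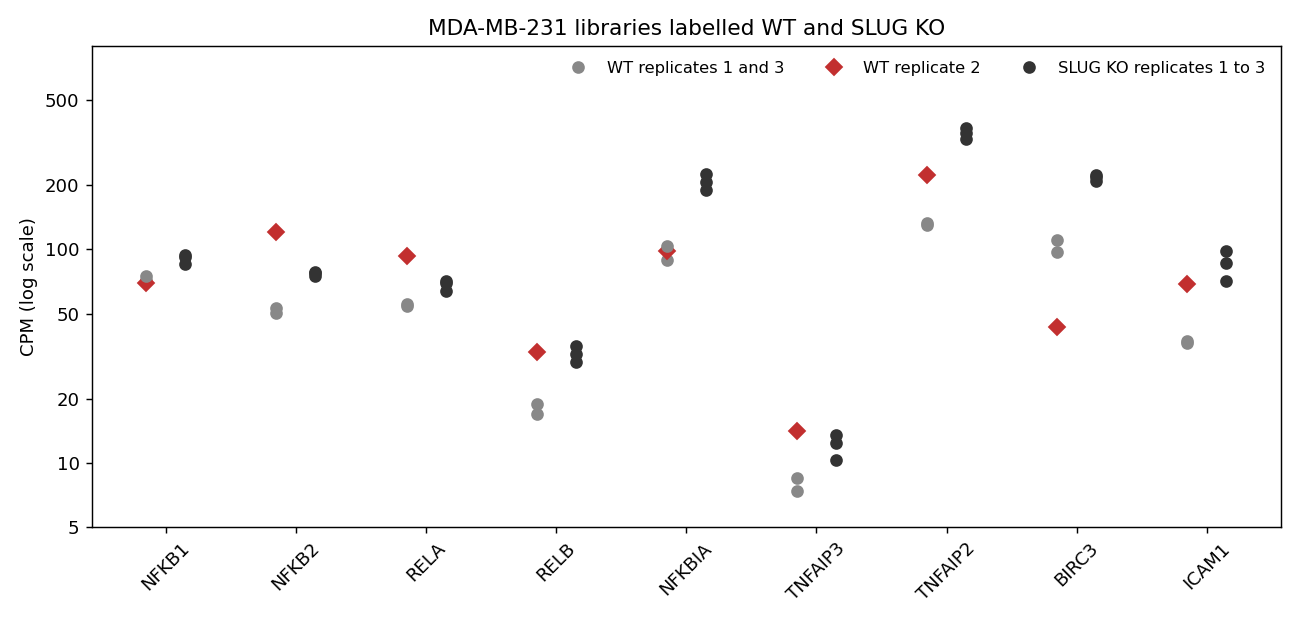
CPM (log axis) of 9 genes in the WT libraries (grey, with replicate 2 as a red diamond) and SLUG KO libraries (black) of MDA-MB-231 cells. Replicate 2 lies above the other WT libraries for NFKB2, RELA, RELB, TNFAIP3, TNFAIP2 and ICAM1 and below them for BIRC3 and NFKB1, while SLUG KO libraries lie above WT replicates 1 and 3 for all 9 genes.

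Depletion of SMAD2/3/4 gave small changes of both signs. Of the 9 members that passed the filter, 3 rose and 2 fell at an adjusted p under 0.05, where 16.3% of 17696 genes were called higher and 19.7% lower. RELB had 34.3, 31.9 and 30.9 CPM in Csi and 27.1, 21.8 and 22.8 CPM in siSMAD2/3/4 libraries (-0.44 ± 0.07). NFKB2, its partner, had 111.4, 115 and 122 CPM against 97.6, 95.0 and 82.7 CPM (-0.35 ± 0.05). With SMAD2/3/4 depletion the non-canonical pair thus fell by 1.36-fold and 1.27-fold, in cells not labelled as given TGFβ.

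TNFAIP2 rose from 239, 209 and 212 CPM to 269, 264 and 248 CPM (0.24 ± 0.05) and NFKBIA from 70.8, 72.7 and 68.0 CPM to 85.8, 82.0 and 79.3 CPM (0.22 ± 0.05). BIRC3 went from 85.7, 89.9 and 80.0 CPM to 105.7, 94.0 and 94.4 CPM (0.20 ± 0.05), a call that was lost with flow cell as a term (0.15), as 2 of the siSMAD2/3/4 libraries carry another flow cell code. NFKB1 (-0.08 ± 0.05), RELA (-0.09 ± 0.04), TNFAIP3 (-0.01 ± 0.11) and ICAM1 (-0.02 ± 0.05) did not pass.

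The rest of the pathway was described with 5 lists of 74 other genes in all: receptors and adaptors, kinases, ubiquitin regulators, inhibitors with REL, and further targets. In MI-spheres with TGFβ, 10 of the 63 genes tested rose and 28 fell, beside 28.7% and 27.4% of all genes, and in MII-spheres 20 of 60 rose and 15 fell, beside 29.9% and 27.6%. The median log2 fold-change over the tested list genes was -0.14 in MI- and 0.01 in MII-spheres, beside -0.02 over all genes in both. Receptors and adaptors had 5 higher and 4 lower of 17 in MI and 9 higher and 2 lower of 17 in MII. IRAK2, a kinase-like adaptor of interleukin-1 and Toll-like receptors, fell in both (-1.53 ± 0.08 and -0.63 ± 0.09, edgeR adjusted p = 9.78e-13 and 1.11e-07), and IL1RAP, the co-receptor of interleukin-1, rose in both (0.72 ± 0.08 in each).

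Of the kinases, 1 rose and 4 fell of 11 in MI- and 2 rose and 3 fell in MII-spheres. Of all genes tested, 28.7% rose and 27.4% fell in MI-spheres, and 29.9% rose and 27.6% fell in MII-spheres. IKBKE, an IκB kinase-related kinase, had 36.0 to 38.4 CPM in unstimulated and 14.7 to 16.5 CPM in stimulated MI-spheres (-1.33 ± 0.08, edgeR adjusted p = 4.23e-12) and 13.0 to 15.4 CPM in all MII libraries. The IκB kinase genes CHUK and IKBKB moved by less than 2-fold in both lines. Of the ubiquitin regulators 2 rose and 4 fell of 13 in MI- and 4 rose and 2 fell in MII-spheres; TNIP1, which binds A20, fell in MI-spheres (-0.51 ± 0.05).

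Of the inhibitors with REL, 1 rose and 6 fell of 7 in MI- and 2 rose and 4 fell in MII-spheres. Beside this list and the further targets below, 28.7% of all genes tested rose and 27.4% fell in MI-spheres. In MII-spheres the shares were 29.9% and 27.6%. NFKBIZ, which encodes the nuclear protein IκBζ, had 135 to 147 CPM in MI-Ctrl and 39.2 to 41.8 CPM in MI-TGFβ (-1.88 ± 0.06), and 288 to 299 CPM in MII-Ctrl and 195 to 212 CPM in MII-TGFβ libraries (-0.56 ± 0.04). BCL3, another nuclear member of the IκB family, fell in MI-spheres (-0.96 ± 0.10). Among further targets, 1 rose and 10 fell of 15 in MI- and 3 rose and 4 fell of 12 in MII-spheres. These counts cover different genes, as BCL2A1, CCL20, MMP9 and TNF were tested in MI-spheres only and SELE in MII-spheres only. CCL20, a chemokine gene, was at 3.66 to 3.75 CPM in MI-Ctrl and 0.0895 to 0.219 CPM in MI-TGFβ libraries. CXCL8, a neutrophil chemokine gene, was at 128 to 138 CPM against 36.1 to 45.4 CPM in MI and rose from 7.49 to 8.99 CPM to 14.4 to 18.3 CPM in MII (1.01 ± 0.11, edgeR adjusted p = 3.10e-11). MMP9, a gelatinase gene, rose in MI-spheres (1.35 ± 0.18), and GADD45B, a stress gene, fell in both lines (-1.76 ± 0.08 and -2.25 ± 0.06).

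**Figure D3:**
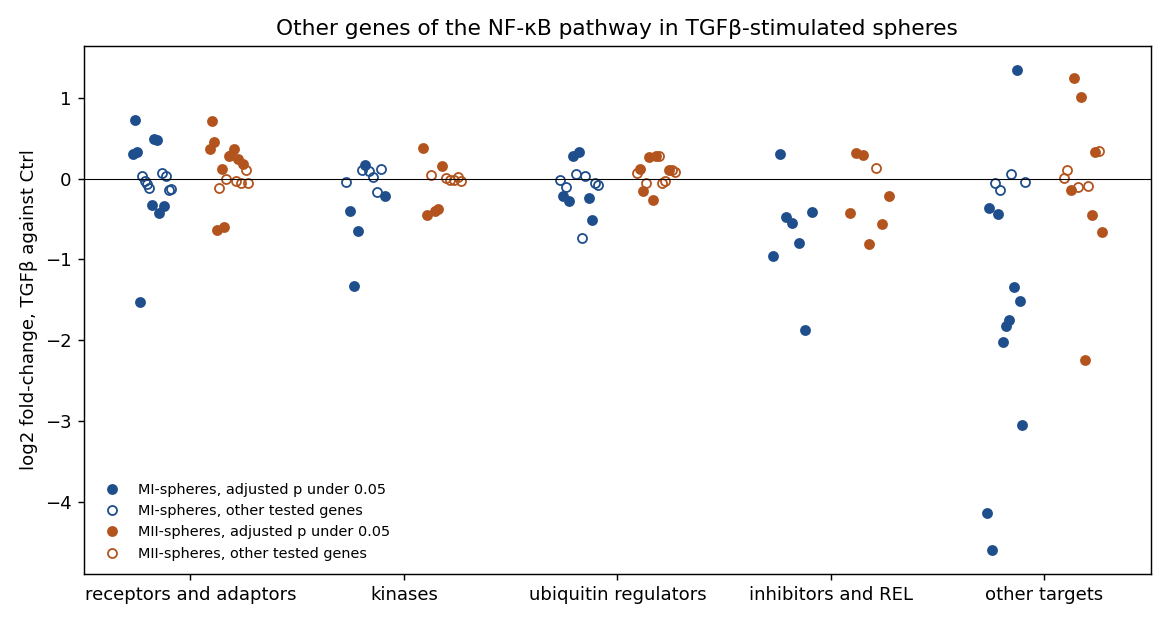
Log2 fold-change for TGFβ against Ctrl (y axis) of each tested gene of the 5 pathway lists (x axis) in MI- and MII-spheres, with filled points for an adjusted p under 0.05. Among further targets 10 of 15 genes fell in MI-spheres against 4 of 12 in MII-spheres, while the receptor, kinase and ubiquitin lists lie mostly near 0. Of all genes tested, 27.4% in MI- and 27.6% in MII-spheres were called lower, and the targets tested differ between the lines.

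In the interaction 21 of 63 list genes passed with a higher and 3 with a lower response in MII-spheres, beside 12.6% and 9.75% of all genes. The largest value among inhibitors was that of NFKBIZ (1.33 ± 0.07) and among kinases that of IKBKE (1.38 ± 0.12), while among targets CCL20 had the highest value, which rests on at most 0.272 CPM in each MII library and is not given, and CXCL8 had 2.84 ± 0.13. Between unstimulated lines 33 of 63 list genes were lower and 18 higher in MII-spheres, beside 32.5% and 31.7% of all genes. IKBKE (-1.46 ± 0.07), TNIP1 (-0.99 ± 0.04) and CYLD (-0.99 ± 0.04), the gene of a deubiquitinase that restrains the pathway, were lower, whereas TLR4 was higher (3.50 ± 0.07) with a mean of 117 CPM in MII and 10.4 CPM in MI. With SMAD2/3/4 depletion 9 of 68 list genes rose and 25 fell, none of them more than 2-fold, beside 16.3% and 19.7% of all genes. OTULIN, a linear-ubiquitin deubiquitinase gene (-0.66 ± 0.05), and CD83, a surface protein gene (-0.86 ± 0.12), moved most.

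In SLUG KO 2 of 68 list genes were higher and 1 was lower, beside 1.45% and 1.89% of all genes. VCAM1, a second adhesion molecule gene, had 10.1, 5.05 and 8.05 CPM in WT and 69.4, 65.1 and 77.5 CPM in SLUG KO libraries (3.16 ± 0.29, edgeR adjusted p = 0.00304), and IL6 had 5.92 to 9.94 CPM against 31.1 to 43.4 CPM (2.14 ± 0.26, edgeR adjusted p = 0.00748). PTGS2 was at 0.497 to 1.43 CPM in WT and at 0 to 0.0453 CPM in SLUG KO libraries. The values of VCAM1, IL6 and PTGS2 are given with every library only. Without WT replicate 2, 36 list genes passed in either direction, and of all 17909 genes then tested 3013 (16.8%) were called higher and 2579 lower.

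Genes with a pattern most like a member were found by Pearson's r of group means of log2 CPM over the 8 groups, among 13869 protein-coding genes with at least 1 CPM in some group. The points share libraries and cell lines, and r is a description. For TRIM31 the 3 closest were CCDC33 (0.998), LRRC31 (0.997) and RNF223 (0.997), each at most 0.107 CPM in MDA-MB-231 groups. RNF223 had 16.4 and 5.94 CPM in MI-Ctrl and MI-TGFβ and 27.1 and 14.0 CPM in MII-Ctrl and MII-TGFβ. In the same order CCDC33 had 5.25, 2.39, 7.43 and 4.49 CPM, and LRRC31 had 5.53, 1.44, 4.93 and 4.58 CPM. LRRC31, unlike TRIM31, thus had a lower mean in MII-Ctrl than in MI-Ctrl. The r values also span the gap between spheres and MDA-MB-231 cells, so they do not describe likeness within the spheres alone. For NFKB2 they were EGFL8 (0.987), LCAT (0.981) and ZNF789 (0.976), and for RELB they were IKBKE (0.967), IL32 (0.930) and CARHSP1 (0.910). Among the members, NFKBIA and TNFAIP3 had r = 0.915, NFKB2 and RELB r = 0.910 and RELB and BIRC3 r = 0.903, and TRIM31 and ICAM1 had r = -0.946.

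Of the 7 other TRIM genes looked at on chromosome 6, TRIM40, TRIM10 and TRIM15 had at most 10 counts in any library. TRIM26 had group means of 50.7 to 73.4 CPM and TRIM39 of 9.08 to 22.7 CPM, with MI-Ctrl and MI-TGFβ at 50.7 and 63.7 CPM for TRIM26 and 10.2 and 9.27 CPM for TRIM39. TRIM27 had group means of 72.1 to 135 CPM. TRIM38, like TRIM31, had a higher mean in MII-Ctrl than in MI-Ctrl (105.4 against 67.4 CPM) and a lower one in MI-TGFβ (60.0 CPM) than in MI-Ctrl, but it was also expressed in MDA-MB-231 cells, with group means of 38.6 to 62.4 CPM.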

How the data were processed

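RNA-seq counts of 24 libraries were used, 3 in each of 8 groups named by the labels; the 16 ATAC-seq samples of the series were not analysed here. The authors made ribosomal RNA-depleted stranded libraries, used Trimmomatic for trimming and STAR in 2 passes for alignment (GRCh38), and took fragments per gene of GENCODE v38 from featureCounts 2.0.0 (both ends mapped, mapping quality of at least 30, strand ignored). They deposited raw counts without normalization. Symbols and positions came from GENCODE v44, promoter windows from RefSeq.

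Fits used only the 6 libraries of a comparison, and 12 for the interaction, with edgeR 4.0.16 (filterByExpr, TMM, quasi-likelihood test, R 4.3.3), and Benjamini-Hochberg adjusted p-values over every tested gene were called under 0.05. An error of a log2 fold-change is its standard error. CPM used TMM over the 24 libraries, so a ratio of CPM can differ slightly from the fitted fold-change. DESeq2 1.42.0 was an alternative, with its size factors, other filters, a replicate block, joint fits and leaving out each library. The tests were also run on counts simulated with known changes. Those counts were drawn from a fitted spread per gene and held no outlying library, so they do not bear on WT replicate 2. The labels call replicates biological, and p-values measure the spread among 3 libraries; an exact permutation test of 3 against 3 cannot go below 0.1. Named genes were all 10 members and, per further list, comparison and direction, the 2 genes with the largest change among those that passed without overlap of the groups, of which a part is printed, together with their values in other comparisons. Members, lists and tests were chosen with earlier results of these data known; MYD88 and SMAD2 in WT replicate 2 and the 33-gene list were chosen after their values were seen. Figures were drawn with matplotlib 3.10.9.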

Additional observations from a re-analysis of the deposited data

Results flagged for a closer look

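For 8 genes the response to TGFβ differed between MII- and MI-spheres in a test of the interaction of line and TGFβ over 12 libraries, an effect in one line set against the same effect in the other. In the same test 12.6% of all 18591 genes were called higher and 9.75% lower, and nothing is read from the count of 8. The difference in log2 fold-change, MII minus MI, was 2.95 for BIRC3, 2.45 for TRIM31, 1.82 for TNFAIP3, 1.34 for TNFAIP2, 1.10 for NFKB2, 1.08 for NFKBIA, 0.95 for RELB and 0.48 for NFKB1. BIRC3 and NFKB1 fell in MI- and rose in MII-spheres, RELB fell in MI-spheres and did not pass in MII-spheres, and the other 5 genes fell in both. The genes were chosen with these values known.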

How the results depend on the processing

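Counts of members past the threshold stayed within 1.5 times of 9, 9, 9, 5 and 8 for TGFβ in MI, TGFβ in MII, MII against MI, SMAD2/3/4 depletion and the interaction under every alternative run. For SLUG KO the count was 1, but 3 in DESeq2, 3 with no low-count filter, 0 with the replicate block and 0 to 9 when 1 library was left out; of the other pathway genes 3 passed, but 9 in DESeq2, 7 with no filter and 2 to 36 when 1 library was left out. All SLUG KO calls over genes numbered 252 higher and 329 lower, against 550 and 654 in DESeq2, 400 and 573 with no filter, 143 and 117 with at least 10 counts in every library, 87 and 168 with the replicate block, and 3013 and 2579 without WT replicate 2. Equal replicate numbers did not pair the libraries, whose deviations from group means correlated at -0.185 to 0.0503 between groups. No call of a member changed with the replicate block except those of NFKBIA in SLUG KO (1.07), ICAM1 for TGFβ in MII (0.94) and RELA between the unstimulated lines (0.13).

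Values that changed sign belonged to genes not called with all libraries, and RELA in SLUG KO was called after the change without WT replicate 2: NFKB2 in SLUG KO (-0.0123 with at least 10 counts in every library, -0.17 to 0.57 leaving out 1 library), RELA in SLUG KO (0.0430 in DESeq2, 0.0715 with no filter, 0.0346 with the replicate block, -0.13 to 0.31), TNFAIP3 with siSMAD2/3/4 (0.00514 with at least 10 counts, 0.0729 with flow cell as a term, -0.0618 to 0.0949), ICAM1 with siSMAD2/3/4 (-0.0660 to 0.0446), RELB for TGFβ in MII (-0.0257 to 0.14) and RELA in the interaction (-0.15 to 0.0147). The cause was not tested. Over all 710 alternative values of member fold-changes, 653 kept direction and side of the threshold, 27 lost the call, 13 gained it and 17 changed sign. Of 80 group levels, 72 moved by less than 1 SD with DESeq2 size factors and all lay within 0.973 to 1.03 times. Without a filter the median over all genes shifted to -0.25 for TGFβ in MII and -0.17 and -0.18 for SLUG KO and the interaction. Low counts limit ICAM1 in spheres and TRIM31 in MDA-MB-231 cells, and the spread of the WT libraries limits SLUG KO.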
